A study of Dunaliella tertiolecta UTEX 'LB 999' with 2 samples.

Results

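The contigs described here carry the names of genes for mitosis, the spindle, cytokinesis and plastid division in Dunaliella tertiolecta, a single-celled green alga of salt water that swims with flagella and has no cell wall. They were the listed contigs with the symbol SMC4, CDKA1 or MIND1, or with a protein name that holds kinesin 5, TPX2 or microtubule-associated protein 65. That gave 6 of the 234 transcript contigs that the authors listed as different between 2 libraries, 1 contig for each name. The TPX2 contig bears the spelled-out name, targeting protein for XKLP2, and was taken by that name. With TPX2 matched by its letters alone, this contig was missed and the other 5 were left.

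The libraries came from cells 8 h and 4 h after a shift to brighter light. Both were from strain UTEX LB-999, grown in a chemostat at 25 °C in ATCC-1174 DA medium with 0.5 M NaCl. The light was 40 µmol photons m-2 s-1 until the culture was at steady state and 400 afterwards, so both libraries had the shift and no library from before it is described here. Each time point had 1 library, so nothing measured the spread between replicates, and every difference below is between these 2 libraries. Library size, as solved from the deposited levels, was 674129 reads at 8 h and 556037 at 4 h. The 6 contigs took 135 reads at 8 h (0.0200%) and 161 at 4 h (0.0290%). Intervals are 95% exact intervals on reads and cover counting error only.

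As background, a eukaryotic cell that is about to divide switches on cyclin-dependent kinases, compacts its chromosomes with ring-shaped complexes of SMC proteins, and builds a spindle of microtubules with kinesin motors and assembly factors. Proteins of the MAP65 family bundle antiparallel microtubules where the new boundary between daughter cells forms, and in Chlamydomonas that boundary forms along a microtubule array called the phycoplast. An alga with a single chloroplast must also divide the plastid, with proteins inherited from the division apparatus of bacteria.

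Of the 6 contigs, 5 were listed as lower at 8 h than at 4 h, and 1 as higher. Among all 234 listed contigs, 42.7% were lower and 57.3% higher. By their names only, the 5 lower contigs stand for the chromosome, cell cycle kinase, spindle and plastid division roles, and the higher one for cytokinesis. The median log2 ratio was -1.76 over the 6 contigs, against 1.14 over all listed contigs. Each of these medians takes its sign from the list that holds more of the contigs. Over the 5 lower contigs the median was -1.86, against -1.42 for the whole lower list. All 5 lower contigs together had 39.2 RPKM at 8 h and 124.7 RPKM at 4 h, where RPKM is reads per kilobase of contig scaled by library size. A contig entered the lists only with a difference of at least 2-fold in the authors' deposited table. Some difference in each of the 6 was thus fixed by the lists. The exact p-values below test a ratio of 1 on contigs chosen that way, so they are no independent support for a difference. RNA came from bulk culture, where fewer dividing cells and less transcript per cell cannot be told apart.

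**Figure D1:**
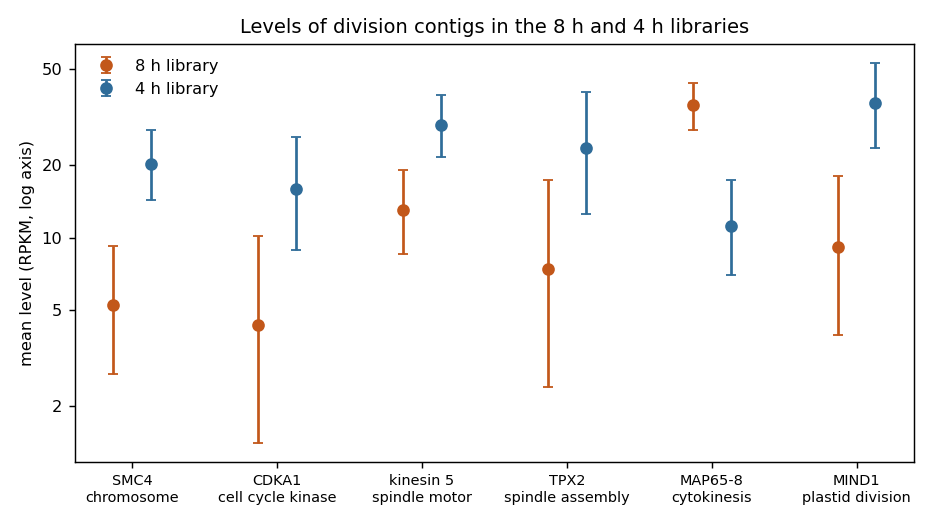
Mean level of each contig in RPKM on a log axis, in the 8 h library and the 4 h library, with 95% exact Poisson intervals on the reads. MAP65-8 stood at 35.3 RPKM at 8 h and 11.2 RPKM at 4 h, and the other 5 contigs were lower at 8 h than at 4 h.

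The SMC4 contig stands for chromosome structure. SMC4 is one of the paired ATPases of condensin, the complex that compacts chromosomes for mitosis. Its level was 5.27 RPKM at 8 h (interval 2.72 to 9.20), against 20.2 RPKM at 4 h (14.3 to 27.8), and these intervals did not overlap. The reads behind these levels were 12 at 8 h and 38 at 4 h. The 8 h level was thus 3.84-fold lower (interval 1.96 to 8.07), with an exact binomial p of 1.20e-05 on the reads and 0.000152 after Benjamini-Hochberg adjustment over the 234 listed contigs. The protein name of the same contig reads structural maintenance of chromosome 3. In animals and yeast that is the name of a cohesin subunit, which holds sister chromatids together, while in Arabidopsis the condensin subunit has been catalogued under both names. The contig, of 3380 bases with the Chlamydomonas reinhardtii protein Cre12.g493400.t1.2 as best hit, was transcript 2 of 3 at its assembled locus, with a confidence of 0.842 in its name, and the other transcripts of that locus were not analysed here.

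CDKA1 stands for the control of the cell cycle. It is the cyclin-dependent kinase related to CDC2 of yeast, and its protein name here is cell division control 2, with Cre10.g465900.t1.1 as best hit. Its level was 4.36 RPKM at 8 h (1.41 to 10.2), against 15.9 RPKM at 4 h (8.87 to 26.1). The reads on its 1702 bases were 5 at 8 h and 15 at 4 h, and the level intervals overlapped. The ratio was 3.64-fold lower at 8 h (1.26 to 12.8), with an exact binomial p of 0.0115, or 0.0358 adjusted over all listed contigs. Of the 6 contigs CDKA1 had the lowest level at 8 h, at percentile 5.13 of all listed contigs in that library.

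The spindle had a motor and an assembly factor among the listed contigs. Kinesins are motor proteins that move along microtubules, and the kinesin 5 family slides spindle microtubules apart. The kinesin 5 contig, of 2956 bases with Cre16.g656700.t1.1 as best hit, stood at 13.05 RPKM at 8 h (8.52 to 19.1), against 29.2 RPKM at 4 h (21.5 to 38.7). It had the most reads of the lower contigs, 26 at 8 h and 48 at 4 h, and the smallest difference of the 6, at 2.24-fold lower at 8 h (1.36 to 3.76). The exact binomial p was 0.000941, or 0.00595 adjusted. The name does not settle the family, because Arabidopsis also has a kinesin 5, ATK5, which belongs to another family of spindle kinesins that move toward the opposite end of the microtubule.

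TPX2 takes part in spindle assembly. In animal cells it promotes microtubule growth around chromosomes and activates the Aurora A kinase. Its contig stood at 7.43 RPKM at 8 h (2.41 to 17.3), against 23.4 RPKM at 4 h (12.5 to 40.1), on 5 reads at 8 h and 13 at 4 h. The level intervals overlapped. The ratio was 3.15-fold lower at 8 h (1.05 to 11.3). Its exact binomial p of 0.0306 was 0.0636 after adjustment over all listed contigs, which missed 0.05. At 998 bases TPX2 was the shortest contig of the 6, and its best hit, Cre11.g482850.t1.2, had the weakest E value, 4e-23.

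Cytokinesis was represented by MAP65-8, the contig named microtubule-associated protein 65-8. Its level was 35.3 RPKM at 8 h (27.8 to 43.8), against 11.2 RPKM at 4 h (7.01 to 17.3), and the intervals did not overlap. It rested on 79.3 reads at 8 h and 20.8 at 4 h. The ratio was 3.15-fold higher at 8 h (1.90 to 5.29), with an exact binomial p of 5.51e-07, or 1.10e-05 adjusted. The raw total of this contig was fractional, at 102.4 reads, while those of the other 5 were whole, and its intervals do not cover error in how reads were divided among contigs. The E value of its best hit, Cre14.g614050.t1.2, was 2e-60 over a contig of 3337 bases. Microtubule bundling proteins of this family act both in interphase and in division in plants.

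MIND1 stands for plastid division. Its protein name is septum site-determining protein (MIND), after the bacterial ATPase that keeps the division ring at midcell, and in plants and algae MinD places the ring in the chloroplast. The level was 9.14 RPKM at 8 h (3.95 to 18.01), against 36.02 RPKM at 4 h (23.5 to 52.8), on 8 reads at 8 h and 26 at 4 h. The intervals did not overlap. The contig had 1298 bases and Cre12.g522950.t1.1 as best hit. The ratio was 3.94-fold lower at 8 h (1.73 to 10.1), the largest difference of the 6, with an exact binomial p of 0.000381, or 0.00287 adjusted.

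All 6 contigs had an unadjusted exact p under 0.05, as had 60.7% of the listed contigs. After adjustment over all listed contigs 5 of 6 remained under 0.05, all but TPX2, against 38.5% of the listed contigs. These tests ran only on contigs already chosen for a difference, so the adjusted p is not an error rate over all contigs of the assembly. A ratio of at least 3-fold in either direction was found in 5 of 6, all but kinesin 5, against 38.0% of the listed contigs. In the authors' deposited table the step-up false discovery rate (FDR) was under 0.05 for MIND1, at 0.00383, and for MAP65-8, at 0.0115, or 2 of 6 against 32.5% of the listed contigs. In the authors' deposited table it was 0.0589 for SMC4, 0.0619 for TPX2, 0.118 for kinesin 5 and 0.127 for CDKA1.

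The p-values from reads and those of the authors put the contigs in different orders. A Wald test with RPKM in the place of Poisson counts came within 1% of the p that the authors' deposited table gives for each of the 6, and such a test does not see how many reads lie behind a level. For SMC4 the authors' deposited table gave a p of 0.00596, while the exact p on its 50 reads was 1.20e-05. For TPX2 the authors' deposited table gave a p of 0.00639, while the exact p on its 18 reads was 0.0306. By exact p SMC4 ranked 2 and TPX2 6 of the 6 contigs, and by the authors' deposited table SMC4 ranked 3 and TPX2 4. The contigs were longer than most, with a median length of 2329 bases against 1095 over all listed contigs, and the better covered library of each held a median of 32 reads against 16.

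**Figure D2:**
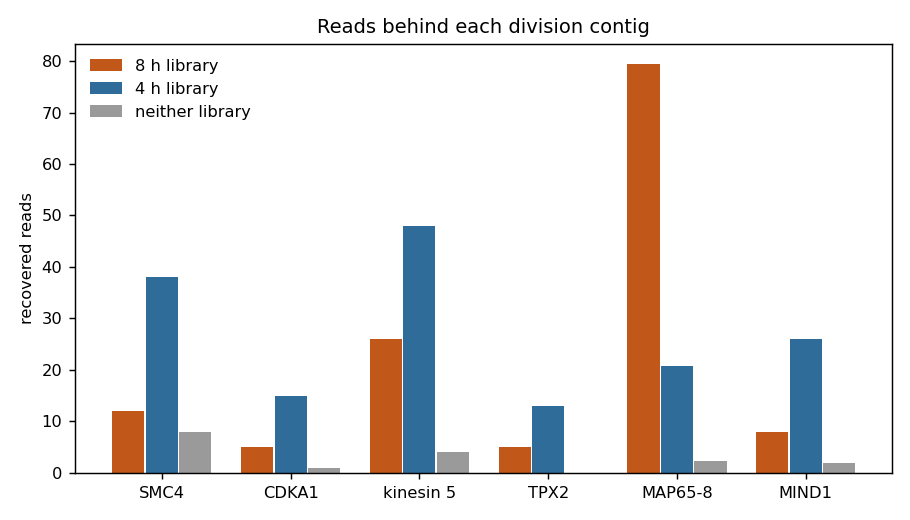
Reads of each contig in the 8 h library, in the 4 h library and in neither of them, worked out from the RPKM levels, the contig lengths and the raw totals. MAP65-8 had 79.3 reads at 8 h, while CDKA1 and TPX2 had 5 each.

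The order of levels differed between the libraries. At 8 h MAP65-8 had the highest level, and its interval, from 27.8 RPKM, lay above those of the other 5 contigs, of which kinesin 5 reached furthest, to 19.1 RPKM. The order at 8 h went on with kinesin 5, MIND1, TPX2, SMC4 and CDKA1, and each of these intervals overlapped that of its neighbour. At 4 h the order from the highest was MIND1, kinesin 5, TPX2, SMC4, CDKA1 and MAP65-8, again with overlap between all neighbours. The interval of MAP65-8 at 4 h, up to 17.3 RPKM, lay below those of kinesin 5 and MIND1 and overlapped those of the other 3. In the 5 lower contigs the order was nearly the same in both libraries, with MIND1 and kinesin 5 changing places.

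The contigs were then compared in pairs, where a role is represented only by the 1 or 2 contigs that bear its name. A two-sided Fisher exact test on the reads of 2 contigs in the 2 libraries, in which library size cancels, was run for all 15 pairs and adjusted over them. The 8 h to 4 h ratio of MAP65-8 was 11.9 times that of MIND1 (interval 4.48 to 35.2, adjusted Fisher exact p of 5.49e-08) and 11.7 times that of SMC4 (4.97 to 29.2, adjusted Fisher exact p of 1.56e-09). It was 6.85 times that of kinesin 5 (3.35 to 14.5), the other microtubule protein with many reads. All 5 pairs with MAP65-8 had an adjusted p under 0.05, the highest being 0.000121 with TPX2. Contigs from opposite lists differ at least 4-fold by the lists' own limit, so that the sign and a minimum size of these 5 differences are fixed. The Fisher tests, against a ratio of 1, do not show a difference beyond that limit. The intervals take no account of how the contigs were chosen, so they do not show it either. Their lower bounds were under 4 with kinesin 5 (3.35), CDKA1 (3.33) and TPX2 (2.81), and above 4 with SMC4 (4.97) and MIND1 (4.48).

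Among the 5 lower contigs, 0 of 10 pairs had a Fisher exact p under 0.05, with or without adjustment. The lowest unadjusted p was 0.235, for kinesin 5 and SMC4, and 0.578 adjusted. The ratio of kinesin 5 was 1.71 times that of SMC4 (interval 0.719 to 4.23) and 1.75 times that of MIND1 (0.650 to 5.14). The highest upper bound of the 10 intervals was 6.34, for kinesin 5 over CDKA1. The ratio of SMC4 was 1.03 times that of MIND1 (0.331 to 3.33). Differences in ratio between the chromosome, kinase, spindle and plastid division contigs were therefore not detectable at this depth, which does not show that they changed alike.

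**Figure D3:**
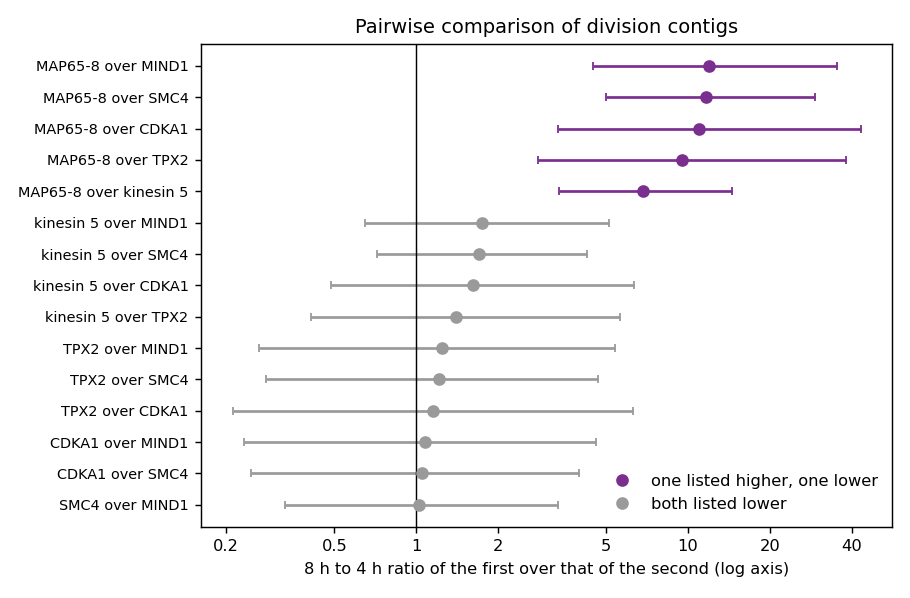
For each of the 15 pairs, the 8 h to 4 h ratio of the first contig over that of the second on a log axis, with 95% exact conditional intervals. The 5 pairs with MAP65-8 lie between 6.85 and 11.9, and the intervals of the 10 pairs among the lower contigs all include 1.

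Other genes of division were looked for with 5 lists of 59 keywords for chromosome structure, cell cycle control, spindle and microtubules, cytokinesis, and plastid division. They matched 6 listed contigs, 4 lower and 2 higher, and 5 of these are described above. The spindle and microtubule list held 1 lower contig, kinesin 5, and 2 higher ones, of which MAP65-8 was one, matched by the word microtubule. The cytokinesis list matched 0 contigs, and TPX2, under its spelled-out name, was in none of the 5 lists. The contig not yet described was RIB72, a component of the ribbons along flagellar microtubules, at 21.5 RPKM at 8 h against 5.97 RPKM at 4 h, 3.61-fold higher at 8 h (1.64 to 9.005) with an adjusted exact p of 0.00275. Its match came from the word microtubules. No listed contig matched the words for cohesin, kinetochore, cyclin, Aurora kinase, the anaphase promoting complex, retinoblastoma, tubulin, katanin, actin, myosin, dynamin or FtsZ. The lists hold only contigs that passed the authors' limits, and contigs outside them were not analysed here, so that this says nothing about the levels of those genes.

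The lower division contigs stood beside replication and histone contigs that were also listed as lower. By keyword, 2 contigs of DNA replication and 8 of core histones were listed, all lower at 8 h, as were 42.7% of all listed contigs. The unadjusted exact binomial p was under 0.05 for 7 of the 8 histone contigs and for 2 of 2 replication contigs, against 60.7% of all listed contigs. The median log2 ratio was -1.24 for replication and -1.16 for histones, against -1.86 for the 5 lower division contigs and -1.42 for the whole lower list, and the difference between these groups was not tested. RPA70B, which coats single-stranded DNA at the fork, had the largest ratio of the replication contigs, 2.38-fold lower (1.52 to 3.80), and HTA4, a histone H2A, that of the histones, 5.14-fold lower (2.49 to 13.6). The raw totals of all 10 were fractional, while those of the 5 lower division contigs were whole. Among contigs of the flagellar list, 16 of 16 were listed as higher, as were 57.3% of all listed contigs, with a median log2 ratio of 1.83. The unadjusted exact binomial p was under 0.05 for 12 of these 16, against the same 60.7% of all listed contigs. FAP115 and FAP81, both flagellar associated proteins, had the largest ratios of that list. Each was 6.60-fold higher (1.55 to 59.2), on 16 reads at 8 h and only 2 at 4 h. The log2 ratio of MAP65-8 was 1.66, against a median of 1.46 for the whole higher list.

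**Figure D4:**
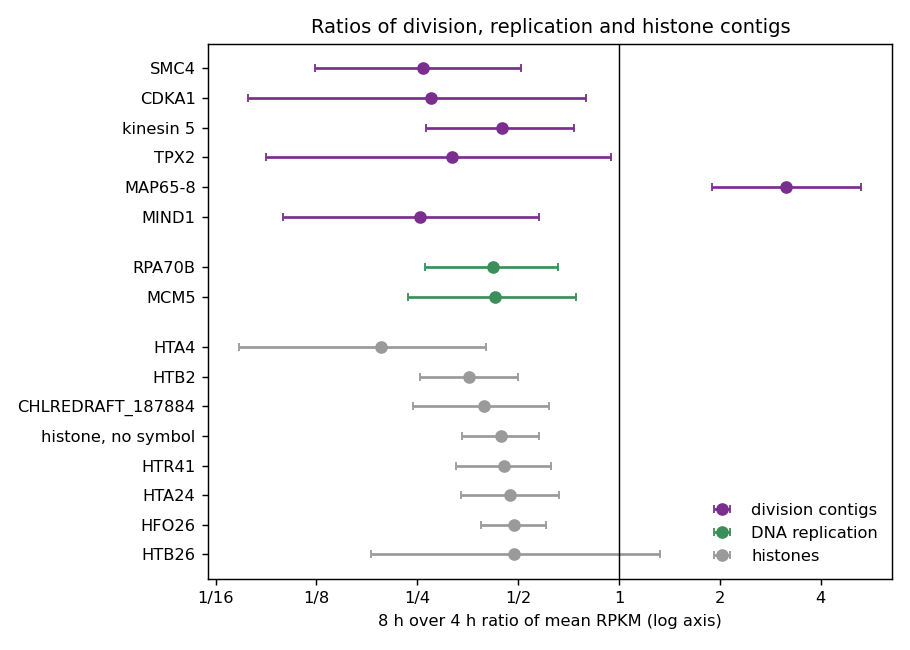
The 8 h over 4 h ratio of mean RPKM on a log axis for the 6 division contigs, 2 replication contigs and 8 histone contigs, with 95% exact intervals on the reads. The ratios of 5 division contigs lie between 0.254 and 0.447, and that of MAP65-8 is 3.15.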

How the data were processed

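Libraries of 2 samples were prepared by the TruSeq Stranded mRNA method, per the labels' protocols. Partek, with no version, is named in the submitters' processing notes. For aligner, assembler and reference, the sources used here give no name. The members and lists were chosen with earlier results of these data known. Gene and protein names are those deposited with each contig. The best hits given above bear Chlamydomonas reinhardtii identifiers. The E value heading of the higher list names that species, and that of the lower list names none.

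The authors' deposited means are RPKM. Their headings name neither sample, and the first was taken as 8 h because the authors' deposited ratio, with a contrast cell that reads 8 vs 4, has it as numerator. The authors' deposited table also gives, for each contig, a p-value with its step-up FDR, the natural log of the ratio, a signed fold score in the lower list, and a raw total as an estimated count.

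Reads were RPKM times contig length times library size, which was solved from the raw maximum and was the same within 0.01% in 134 rows of the higher list and 97 of the lower list. All 161 contigs with whole raw totals gave whole reads within 0.001. Reads of the others were rounded for tests. Ratios had Clopper-Pearson intervals of the 8 h share and a two-sided exact binomial test, and levels exact Poisson intervals. These tests compare libraries, not conditions, and run on contigs chosen for a large difference. Scripts were tested on simulated reads, drawn without choosing contigs for a large difference. How the intervals and p-values behave on contigs chosen that way was not tested. Named were all members, every contig matched to a division list, and the largest ratio of each neighbouring group, with its tie in the flagellar list. In the flagellar list the stems FAP, IFT, ODA and RIB were matched before a digit, as letters alone took in ribosomal names. The tools were scipy 1.17.1, pandas 2.3.3 and numpy 2.4.6 under Python 3.11.15, with figures by matplotlib 3.10.9.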

Additional observations from a re-analysis of the deposited data

Results flagged for a closer look

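For 2 of the 6 contigs the raw total went beyond the reads of both libraries by more than the 3 reads that a count of 0 allows. SMC4 had 8.00 such reads of 58 (13.8%), and kinesin 5 had 4.00 of 78 (5.13%). The other 4 contigs had at most 2.28, and over all listed contigs 45.7% exceeded 3 reads. Taken over the 6 contigs, the excess was 5.51% of raw reads, against 15.2% over all listed contigs. Where these reads come from was not tested, and they entered no comparison.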

How the results depend on the processing

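Under pseudocounts of 1 and 0.1 RPKM, reads with no scaling and scaling to the summed reads of listed contigs, all 24 ratios kept their direction and stayed within their intervals. The direction could not have changed here. An equal pseudocount keeps the order of the levels, and the changes of scaling moved ratios by less than the 2-fold limit of the lists. With no scaling every log2 ratio moved up by 0.28, and SMC4 stood at 0.316 and MAP65-8 at 3.82. The 5 lower and 1 higher contigs also kept their number with at least 10 reads in the higher library or an E value under 1e-20. Neither limit could remove a contig. The fewest such reads were 13, for TPX2 at 4 h, and the largest E value was 4e-23. Lower contigs numbered 4 at a 3-fold limit, 4 with TPX2 matched by its letters only and 4 with an adjusted exact p under 0.05, with 1 higher each time. With an FDR of the authors under 0.05, 1 lower contig was left, MIND1. The matching of TPX2, the exact p limit and the next 2 settings were chosen after seeing the data. With whole raw totals only, 0 higher contigs were left, as MAP65-8 has a fractional total. Leaving out MAP65-8 left 0 pairs with an adjusted Fisher exact p under 0.05, against 5. That was fixed beforehand, as all 5 such pairs hold MAP65-8. Of the keyword matches, 1 was lower and 1 higher with that FDR. Reading the matches by hand took out RIB72 and brought in TPX2. That gave the same 6 contigs described here, 5 lower and 1 higher, and so is no separate check. With the flagellar stems matched by letters alone, also chosen after seeing the data, 5 contigs were lower, from wrong matches. No paired analysis was possible because each time point has 1 library. With 5 reads at 8 h, CDKA1 and TPX2 have the widest intervals.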
